A study of Mus musculus with 18 samples.

Results

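The CAR-deficient effector T cells of the small intestine lamina propria were compared with the CAR-deficient effector T cells of the spleen across all genes, without and with the libraries paired by the ending of their column name. The members are 6 of the 18 RNA-seq libraries of the study, 3 from siLP_CARko (small intestine lamina propria) and 3 from spleen_CARko. Both groups are labelled as donor T cells of the C57BL/6 background that lack CAR (Nr1i3-/-), so the labelled genotype is shared and the organ is what differs. In each case about 500 CD4+ effector T cells were sorted 3 weeks after transfer into Rag-deficient hosts, which lack lymphocytes with rearranged antigen receptors. The matching libraries of wild type CD45.1+ C57BL/6 cells and those of the colon lamina propria (cLP) are used where stated. The deposited columns name cells by CD45.1, an allelic form of CD45 (Ptprc) used to tell donor cells apart. Columns marked negative for it were taken as CAR-deficient because the wild type cells are the ones that carry it. The 3 libraries of a group are called a, b and c after their column endings, which are not replicate numbers given by the labels, and p-values measure only the spread between such libraries. How cells were freed from each organ is not given in the sources used here, and organ and isolation procedure cannot be told apart.

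CAR, the product of Nr1i3, is a nuclear receptor that senses foreign and metabolic compounds and switches on drug-handling genes, mostly in liver. T cells that enter the small intestine meet bile acids, food and microbial products, and many stay there as tissue-resident cells held by surface proteins such as CD69. T cell receptor signals and cell stress both switch on immediate-early genes, which encode short-lived transcription factors and the inhibitors that shut the same signals down. Spleen effector cells, by contrast, lie in a lymphoid organ open to the blood and can leave it along gradients of the lipid sphingosine-1-phosphate.

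The 6 libraries held 19605316 to 23388907 estimated counts, so a floor of 3 counts corresponds to 0.118 to 0.158 CPM, the count scaled to library size that is used as the level throughout. Small intestine library a and spleen library a stood apart, with 16128 and 15466 genes detected and 3.70% and 3.98% of counts from mitochondrial genes. Libraries b and c of both organs had 17228 to 17514 genes and 2.27% to 2.78%. The summed level of 10 CD4 T cell markers, among them Cd3e, Cd4 and Trac, was 10961 to 16287 CPM in the small intestine and 10008 to 16994 CPM in the spleen libraries, and Cd8a reached at most 0.295 CPM in small intestine and 1.32 CPM in spleen. Nr1i3 (ENSMUSG00000005677, chr1:171213970-171220701 of GRCm38, plus strand) had 196, 0 and 0 counts in small intestine libraries a, b and c, and 0, 14 and 14 counts in spleen libraries a, b and c. It had 0, 5 and 0 counts in wild type small intestine and 36, 0 and 7 in wild type spleen, so the 196 counts, 9.49 CPM, were the highest of all 18 libraries. A gene-level count does not show which exons were read. Nr1i3 thus did not separate the labelled genotypes and gives no check of them. Counts were present in the libraries labelled siLP_CARko a and spleen_CARko b and c, which does not by itself settle their genotype. The calls left without each of these libraries are given below.

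Of 14876 genes tested, 30 rose in small intestine over spleen and 2 fell, at an adjusted p under 0.05 (edgeR quasi-likelihood test with Benjamini-Hochberg adjustment). That is 0.215% of the genes tested, 0.202% higher and 0.0134% lower. The median log2 fold change of the 30 genes was 2.87, against -0.01 over all genes, and 24 of them exceeded 2. All 30 had every small intestine library above every spleen library, as 1027 genes did in all (6.9%), and 770 genes (5.18%) had every small intestine library below. By gene list, 4 were NF-kB subunits and feedback genes (Tnfaip3 and Nfkbia among them), 4 heat shock chaperones (Hspa1a and Dnajb1), 3 AP-1 and CREB immediate-early genes (Fosb and Atf3), 3 genes of the Nr4a, Egr and Dusp families (Nr4a1, Egr1 and Dusp5) and 2 retention genes (Cd69 and Bhlhe40).

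Pairing by column ending raised the number of calls. With the ending as a block, 77 genes passed (0.518%), 74 higher (0.497%) and 3 lower (0.0202%), and these include all 32 called without it. The calls rest on a spread estimated over the 6 groups of the study. Fitted on the 6 libraries alone, 0 genes passed with the block and 0 without it, and 534 and 552 had an unadjusted p under 0.05. These libraries were filtered anew, so 744, which is 5% of the 14876 genes of the main fit, is only a rough mark above both. DESeq2 called 275 of 15206 genes (1.81%), among them all 32, and 208 of the 275 were higher. Within the 14876 genes tested by edgeR, DESeq2 called 206 higher and 64 lower, so the share of falling genes depended on the method. Without the 6 a libraries of the study 19 genes passed, 11 of them from the 32: Hilpda, Tnfaip3, Nfkbiz, Dusp5, Tgif1, Fosb, Dennd4a, Klf6, Hspa1b, Hspa1a and Dnajb1. Leaving out single libraries left 15 calls without small intestine a, 28 without b and 17 without c, and 6, 19 and 5 without spleen a, b and c. Hilpda, Tnfaip3, Nfkbiz and Dusp5 passed in all 6 of these fits, and the other 28 genes missed the threshold in at least 1.

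**Figure D1:**
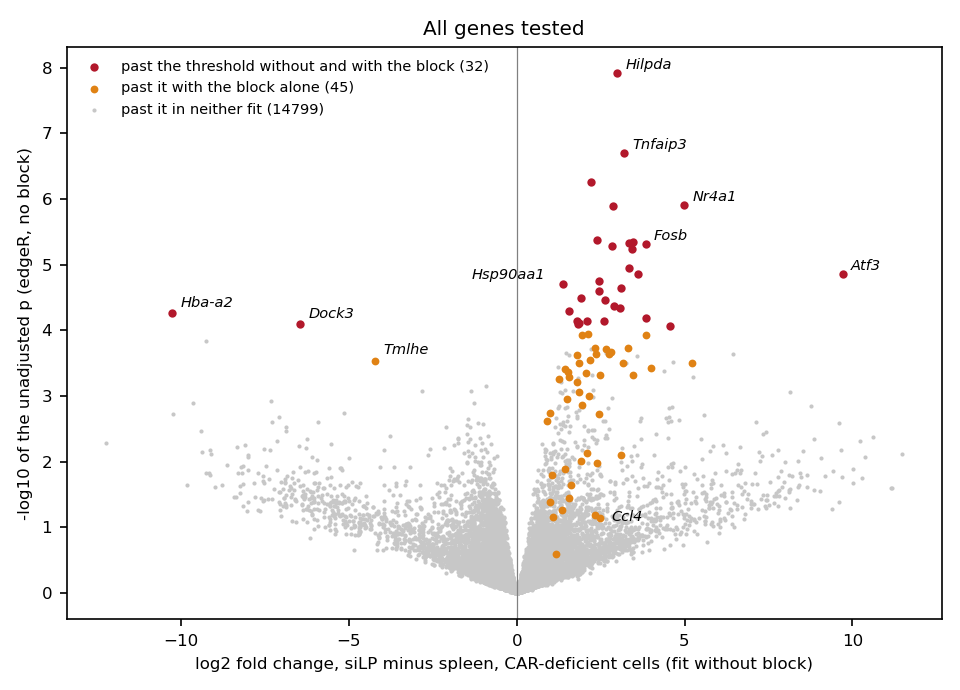
Each point is a gene, with the log2 fold change of small intestine minus spleen CAR-deficient cells on the x axis and the -log10 of the unadjusted edgeR p, without the block, on the y axis. The 32 genes past the threshold (red) lie almost all to the right, as do the 45 that passed with the block alone (orange).

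The smallest p of all belonged to Hilpda (ENSMUSG00000043421, chr6:29272488-29275446), whose product coats lipid droplets, slows their breakdown and is known as a hypoxia target. It had 163, 153 and 176 CPM in small intestine libraries a, b and c, against 18.4, 25 and 18.5 CPM in spleen libraries a, b and c. The groups lay far apart with little spread in either, a 7.94-fold difference (log2 fold change 2.99 ± 0.28 SE, n = 3 each, adjusted p = 0.000179). The hypoxia and glycolysis list, which does not hold Hilpda, had 11 of 22 members above 0 and a median of 0.00. In edgeR 0 members passed, without or with the block, and DESeq2 called 1 higher. A part of hypoxia in the Hilpda difference was not tested.

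Immediate-early genes were higher in small intestine across 2 lists. Of 17 AP-1 and CREB-family immediate-early genes tested, 16 had a log2 fold change above 0 and the median was 1.97; 3 rose (Fosb, Atf3, Maff), 6 with the block, and 12 did not overlap between the groups. Of 14 genes of the Nr4a, Egr and Dusp families and the Sprouty inhibitors, 13 lay above 0 with a median of 2.70; 3 rose (Nr4a1, Egr1, Dusp5), 6 with the block. Over all genes tested, 0.202% rose without the block and 0.497% with it, and 6.9% lay higher without overlap. The same shares stand beside the list counts given below. The lists were drawn up with earlier results of these data known, so their counts describe the comparison and do not test it.

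Nr4a1 (ENSMUSG00000023034, chr15:101254269-101274795), an orphan nuclear receptor that follows the strength of T cell receptor signals, had 169, 84.3 and 276 CPM in small intestine libraries a, b and c, against 5.53, 7.43 and 3.62 CPM in spleen. The lowest small intestine library exceeded the highest spleen library by a wide margin (log2 fold change 4.99 ± 0.66, 31.9-fold, adjusted p = 0.0038). Its relatives Nr4a2 and Nr4a3 gave 3.86 ± 0.76 and 3.46 ± 0.79 on the same scale and passed with the block alone (adjusted p = 0.0502 and 0.108 without it, 0.00735 and 0.000415 with it). Nr4a3 had 171, 78.8 and 49.6 CPM in small intestine libraries a, b and c and 13.9, 9.16 and 4.17 CPM in spleen libraries a, b and c. Library a was the highest and library c the lowest in both organs, and the 3 same-ending log2 ratios lay close together at 3.57, 3.04 and 3.42.

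Fosb (ENSMUSG00000003545, chr7:19302696-19310051), a Fos-family subunit of the AP-1 transcription factor, had 527, 167 and 168 CPM in small intestine libraries and 29.4, 16.5 and 14.4 CPM in spleen libraries (log2 fold change 3.84 ± 0.57, adjusted p = 0.00768). Atf3, a stress-induced member of the same dimerising family, had 370, 326 and 577 counts in small intestine and 0, 0 and 1 in spleen. Its summed counts differed by a factor of 1138 after scaling, with a 95% counting interval of 204 to 44976, and the gene passed at an adjusted p of 0.0146. Maff, a small Maf protein, had 11.6, 6.91 and 5.44 CPM in small intestine against 0.0527, 0.705 and 0.227 CPM in spleen (adjusted p = 0.0396). Egr1, a zinc finger factor downstream of MAP kinase signals, had 273, 137 and 179 CPM in small intestine against 31.5, 51.4 and 13.4 CPM in spleen (log2 fold change 2.61 ± 0.49, adjusted p = 0.0381). Thus in all 4 genes the groups were clear of each other, with spleen near the floor for Atf3 and Maff alone.

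Better-known AP-1 members missed the threshold without the block. Fos had 1858, 1038 and 1235 CPM in small intestine libraries against 124, 333 and 129 CPM in spleen libraries (log2 fold change 2.82 ± 0.59, adjusted p = 0.072, and 0.0282 with the block). Jun followed with 2.33 ± 0.48 (adjusted p = 0.0703, with the block 0.0361), and Junb, at 1.97 ± 0.86, passed in neither fit (adjusted p = 0.69 and 0.157). All 3 genes had every small intestine library above every spleen library, but spleen library b stood high for Junb at 457 CPM, close to the 537 CPM of small intestine library b. Among the dual-specificity phosphatases, which take the phosphates off MAP kinases, Dusp5 (ENSMUSG00000034765, chr19:53529109-53542431) rose, with 289, 131 and 193 CPM in small intestine and 13.9, 35.7 and 35.1 CPM in spleen (log2 fold change 2.86 ± 0.38, adjusted p = 0.0038). Dusp1 passed with the block alone (log2 fold change 3.30 ± 0.68, adjusted p = 0.0703 without the block and 0.0208 with it).

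**Figure D2:**
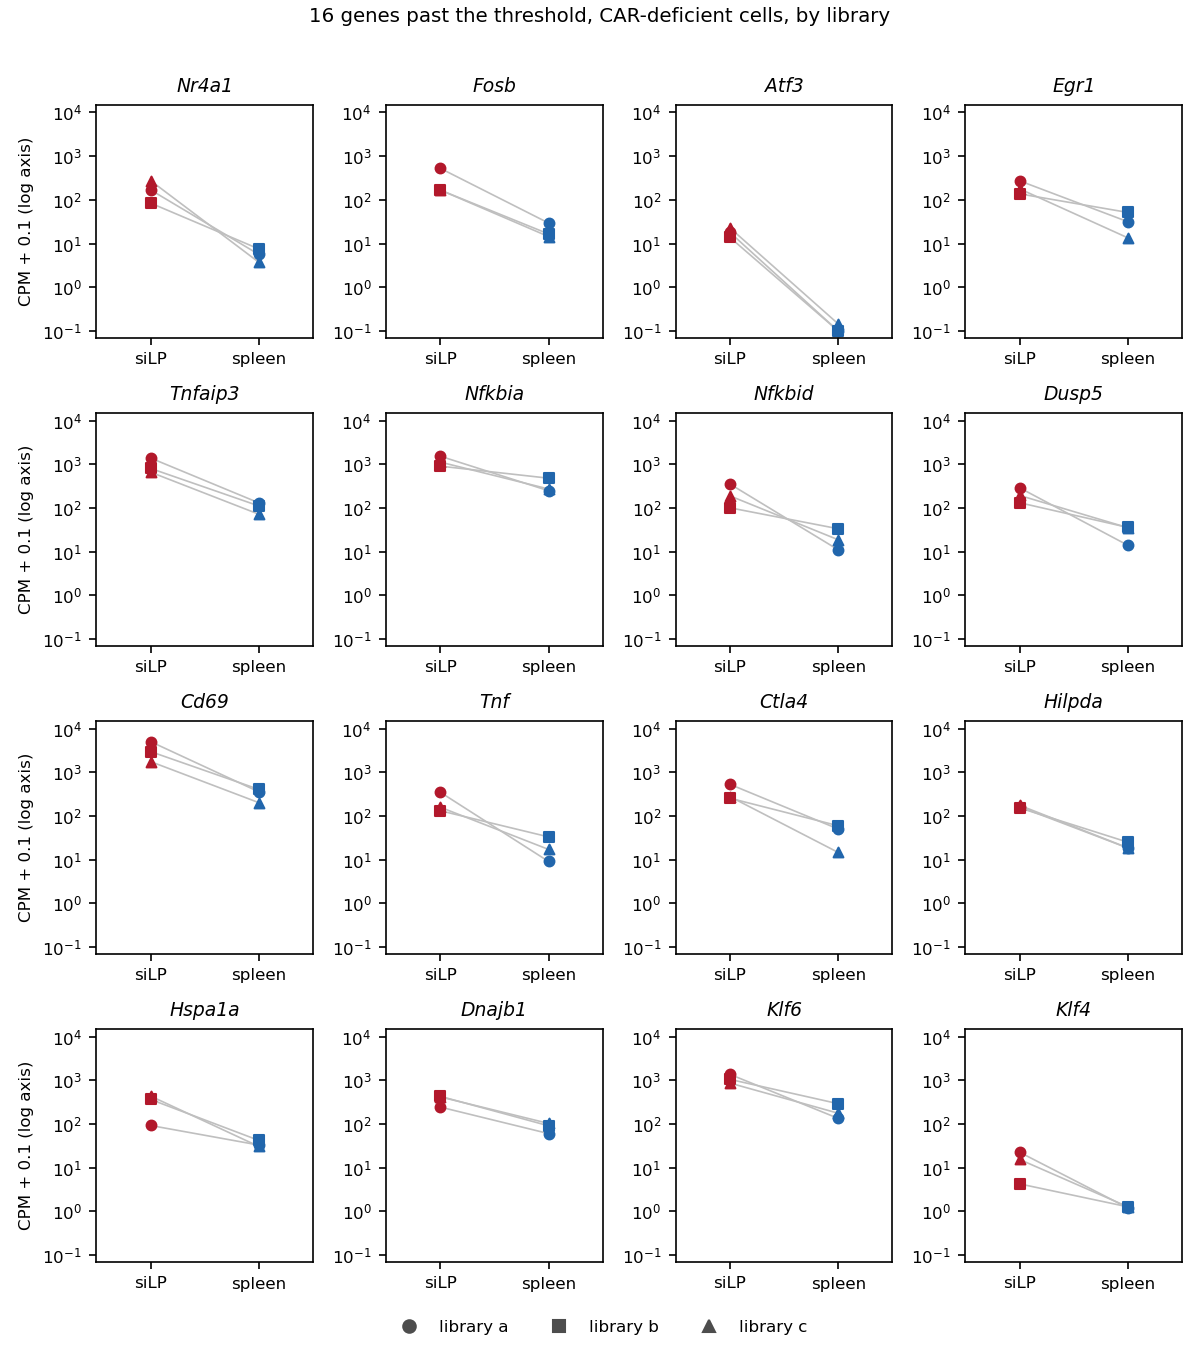
Levels of 16 genes past the threshold in each CAR-deficient library, as CPM + 0.1 on a log axis; grey lines join libraries of the same column ending. In every panel the 3 small intestine libraries (red) lie above the 3 spleen libraries (blue), and Atf3 sits at the bottom of the axis in spleen.

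Promoter sequences of 5 of the genes that rose are shown because these genes stand for 3 known control routes: cyclic AMP and CREB-type sites (Nr4a1, Atf3), kappaB sites (Tnfaip3, Nfkbia) and heat shock elements (Hspa1a). Each is the 250 bases before the listed start in RefSeq on GRCm38.p6, 5′ to 3′ in the direction of the gene, and 24 of the 30 genes that rose had such an entry. Capitals mark the half-site TGACG of a cyclic AMP response element, here as its reverse complement CGTCA. It is marked in Nr4a1 (chr15:101266596-101266845, plus strand, 4 matches) and Atf3 (chr1:191183334-191183583, minus strand, 1 match). Capitals also mark a kappaB site in Tnfaip3 (chr10:19015411-19015660, minus strand, 2 matches, 1 of 2 listed starts) and Nfkbia (chr12:55492648-55492897, minus strand, 1 match). In Hspa1a (chr17:34972157-34972406, minus strand) they mark 1 pair of heat shock units, GAANNTTC.
Nr4a1: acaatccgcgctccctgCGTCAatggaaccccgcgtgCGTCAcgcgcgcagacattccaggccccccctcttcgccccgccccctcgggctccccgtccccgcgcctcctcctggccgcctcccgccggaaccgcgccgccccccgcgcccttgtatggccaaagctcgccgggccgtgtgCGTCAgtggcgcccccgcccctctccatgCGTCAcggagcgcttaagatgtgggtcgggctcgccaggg
Atf3: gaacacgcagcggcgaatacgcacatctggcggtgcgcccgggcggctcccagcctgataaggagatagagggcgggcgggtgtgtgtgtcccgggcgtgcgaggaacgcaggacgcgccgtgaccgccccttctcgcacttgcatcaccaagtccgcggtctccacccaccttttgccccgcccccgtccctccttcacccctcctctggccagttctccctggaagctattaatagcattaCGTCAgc
Tnfaip3: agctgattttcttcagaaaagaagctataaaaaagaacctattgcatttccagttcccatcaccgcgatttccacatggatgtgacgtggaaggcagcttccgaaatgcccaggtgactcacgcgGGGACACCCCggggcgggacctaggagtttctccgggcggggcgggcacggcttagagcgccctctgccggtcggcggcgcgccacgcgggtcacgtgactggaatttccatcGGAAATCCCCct
Nfkbia: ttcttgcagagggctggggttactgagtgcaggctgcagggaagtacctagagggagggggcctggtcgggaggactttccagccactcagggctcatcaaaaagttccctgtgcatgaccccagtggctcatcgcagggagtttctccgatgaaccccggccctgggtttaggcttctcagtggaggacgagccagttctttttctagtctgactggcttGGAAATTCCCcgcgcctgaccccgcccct
Hspa1a: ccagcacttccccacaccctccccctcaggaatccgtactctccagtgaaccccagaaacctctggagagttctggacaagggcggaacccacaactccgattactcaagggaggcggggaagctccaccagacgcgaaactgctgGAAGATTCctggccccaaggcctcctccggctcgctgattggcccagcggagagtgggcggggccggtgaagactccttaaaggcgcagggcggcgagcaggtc

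These motifs, searched on both strands and chosen with the results known, are short and common. The half-site TGACG was found in 11 of the 24 promoters, against 25.1% of the 13373 windows of genes tested here and 17.8% of all 32851 windows. The full element TGACGTCA, which is a pair of overlapping half-sites, was found in Btg2 alone of the 24. It was in 2.44% of the windows of genes tested and 1.55% of all windows. A kappaB site was found in 3 of the 24 (Tnfaip3, Fosb, Nfkbia), against 4.43% of the windows of genes tested and 3.9% of all windows. For GAANNTTC it was 4 (Hspa1a, Hspa1b, Ctla4, Pnrc1), against 5.23% of tested and 6.69% of all. A CArG box was found in 1 (Dusp5), against 1.21% of tested and 1.47% of all. A match describes the letters in the window and not a site in use.

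Inhibitors and inhibitor-like regulators of NF-kB, the transcription factor family of inflammatory and antigen signals, rose, while its subunits did not pass without the block. Of 17 genes in the list 15 lay above 0, with a median of 0.65; 4 rose (Tnfaip3, Nfkbiz, Nfkbid, Nfkbia), 5 with the block. Tnfaip3 (ENSMUSG00000019850, chr10:19000910-19015657), which encodes the ubiquitin-editing enzyme A20 that shuts NF-kB signalling down, had 1386, 801 and 658 CPM in small intestine libraries, against 130, 111 and 71.5 CPM in spleen libraries. Its groups did not overlap, and library a was the highest and library c the lowest in both (log2 fold change 3.19 ± 0.37, adjusted p = 0.00147).

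Nfkbia, which encodes the inhibitor that holds NF-kB in the cytoplasm, had 1527, 903 and 1119 CPM in small intestine libraries and 247, 479 and 271 CPM in spleen libraries (log2 fold change 1.83 ± 0.35, adjusted p = 0.0384). The nuclear inhibitor-like proteins encoded by Nfkbiz and Nfkbid, which tune the response of single target genes, gave log2 fold changes of 2.22 ± 0.28 and 3.35 ± 0.49 (adjusted p = 0.00277 and 0.00768). Of the subunits, Rel, the subunit most tied to T cell activation, had 109, 97.8 and 59.7 CPM in small intestine and 30.3, 39.7 and 19.9 CPM in spleen, and passed with the block alone (log2 fold change 1.57 ± 0.36, adjusted p = 0.113 without the block and 0.00899 with it). Nfkb1 had 114, 67.3 and 101 CPM in small intestine against 23.7, 90.4 and 90.2 CPM in spleen, and the groups overlapped. Tnf, which encodes a cytokine that both triggers NF-kB and is made under it, had 349, 132 and 159 CPM in small intestine and 9.01, 33.1 and 17.1 CPM in spleen (log2 fold change 3.43 ± 0.51, adjusted p = 0.00773).

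All 15 heat shock and chaperone genes tested lay above 0, with a median log2 fold change of 0.96; 4 rose, and Dnajb4 passed with the block alone. Hspa1a and Hspa1b encode nearly the same inducible HSP70 protein and share most of their sequence, so the split of reads between them is uncertain. Hspa1a had 92.6, 365 and 436 CPM in small intestine libraries against 32.9, 42.1 and 30.6 CPM in spleen libraries (log2 fold change 3.08 ± 0.56, adjusted p = 0.0311). Hspa1b had 251, 717 and 787 CPM in small intestine against 111, 78.6 and 94.8 CPM in spleen (2.62 ± 0.46, adjusted p = 0.0258). In both, small intestine library a was the lowest of its group, whereas it was the highest for Fosb, Egr1, Tnfaip3, Dusp5 and Cd69.

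Hsp90aa1, the inducible HSP90 chaperone, had a small but even difference, with 1938, 1885 and 2197 CPM in small intestine libraries and 578, 978 and 747 CPM in spleen libraries (log2 fold change 1.39 ± 0.23, adjusted p = 0.0179). Dnajb1, the HSP40 partner of HSP70, had 245, 431 and 418 CPM in small intestine against 60.4, 91.1 and 103 CPM in spleen (2.10 ± 0.40, adjusted p = 0.0381). The constitutive Hspa8 had 4960, 6199 and 4804 CPM in small intestine and 1792, 3066 and 3902 CPM in spleen and passed in neither fit (0.87 ± 0.39, adjusted p = 0.69). Genes of the unfolded protein and integrated stress response had 14 of 17 above 0 with a median of 0.64; 0 passed without the block and 3 with it, Gadd45b, Ppp1r15a and Dnajb9.

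Other early-response genes also rose. Klf6 and Klf4, Krüppel-like zinc finger factors, gave log2 fold changes of 2.45 ± 0.42 and 3.60 ± 0.58 (adjusted p = 0.0205 and 0.0146), as 2 of 9 family members tested. Klf2, the family member that drives expression of lymph node homing and exit receptors, had 527, 169 and 412 CPM in small intestine and 137, 133 and 220 CPM in spleen, which overlapped (1.17 ± 0.50, adjusted p = 0.69). Btg2, an antiproliferative gene, rose as the 1 call among 12 genes of messenger RNA decay and the Btg family (1.79 ± 0.34, adjusted p = 0.0381), of which 11 lay above 0 at a median of 1.32. Further genes that rose were Tagap, which encodes a GTPase-activating protein of activated T cells, at 2.40 ± 0.35, Tgif1, a repressor of TGF-beta targets, at 3.48 ± 0.51, and Kdm6b, a histone demethylase, at 2.89 ± 0.52. Per1, a clock gene, gave 3.85 ± 0.72, and Slc3a2, a subunit of amino acid transporters, 1.85 ± 0.35.

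Most retention genes lay higher in small intestine, with 18 of 20 above 0 and a median of 1.33; Cd69 and Bhlhe40 rose and Rgs1 passed with the block alone. CD69 holds T cells in tissue by pulling the sphingosine-1-phosphate receptor from the surface. Cd69 (ENSMUSG00000030156, chr6:129267325-129275436) had 5030, 2977 and 1757 CPM in small intestine libraries and 357, 405 and 202 CPM in spleen libraries (log2 fold change 3.34 ± 0.53, 10.1-fold, adjusted p = 0.0139). The lowest small intestine library lay well above the highest spleen library. Bhlhe40, a transcription factor needed by resident T cells and for inflammatory cytokines, had 954, 540 and 623 CPM in small intestine against 161, 190 and 207 CPM in spleen (1.92 ± 0.33, adjusted p = 0.0248).

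Rgs1, a brake on chemokine receptor signals and a common mark of gut T cells, had 2523, 2374 and 1564 CPM in small intestine libraries against 447, 803 and 422 CPM in spleen libraries (log2 fold change 1.95 ± 0.39, adjusted p = 0.0502, with the block 0.0158). Rgs2 showed a larger difference, 3.25 ± 0.71, and passed in neither fit (adjusted p = 0.083 and 0.0611). Itgae, the CD103 chain that binds E-cadherin on epithelium, had 38.9, 103 and 28.5 CPM in small intestine and 13.2, 3.34 and 8.24 CPM in spleen, and did not pass (2.78 ± 1.16, adjusted p = 0.685). Its groups did not overlap, and small intestine library b stood far above the rest of its group. In bulk libraries like these, fewer cells of a kind and less RNA per cell cannot be told apart.

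Receptors that bring cells to the gut lay on both sides of 0, with 8 of 14 above it and a median of 0.08. The 4 that did not overlap between the groups were all higher in small intestine, as were 6.9% of all genes tested. Without the block 0 passed, and Gpr183 and Cxcr4 passed with it. Ccr9, the receptor for the small intestine chemokine CCL25, had 20.4, 25.1 and 7.34 CPM in small intestine libraries against 0.685, 0.611 and 4.71 CPM in spleen libraries. Its groups did not overlap, but the gap was smallest in the c libraries (log2 fold change 3.13 ± 1.13, adjusted p = 0.591). Itga4 and Itgb7, the chains of the gut-homing integrin, overlapped between the organs, with 386, 220 and 337 CPM in small intestine and 461, 263 and 406 CPM in spleen for Itga4, and 130, 138 and 275 CPM in small intestine and 110, 305 and 267 CPM in spleen for Itgb7. Gpr183, which guides cells along oxysterols, had 117, 140 and 254 CPM in small intestine against 37.5, 32.9 and 43.6 CPM in spleen (2.16 ± 0.54, adjusted p = 0.177, with the block 0.0166).

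Recirculation genes also lay on both sides, with 8 of 18 above 0, a median of -0.08 and 0 calls without or with the block. S1pr1, the exit receptor for sphingosine-1-phosphate, had 46.9, 20.5 and 110 CPM in small intestine libraries against 112, 61.8 and 124 CPM in spleen libraries, lower in all 3 same-ending pairs but overlapping (log2 fold change -0.75 ± 0.65, adjusted p = 0.904). Ccr7, the lymph node homing receptor, had 0, 0 and 3.27 CPM in small intestine and 17.8, 4.56 and 18.5 CPM in spleen, with no overlap (-3.63 ± 1.77, adjusted p = 0.722). Tcf7 and Il7r, genes of memory potential, overlapped between the organs.

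**Figure D3:**
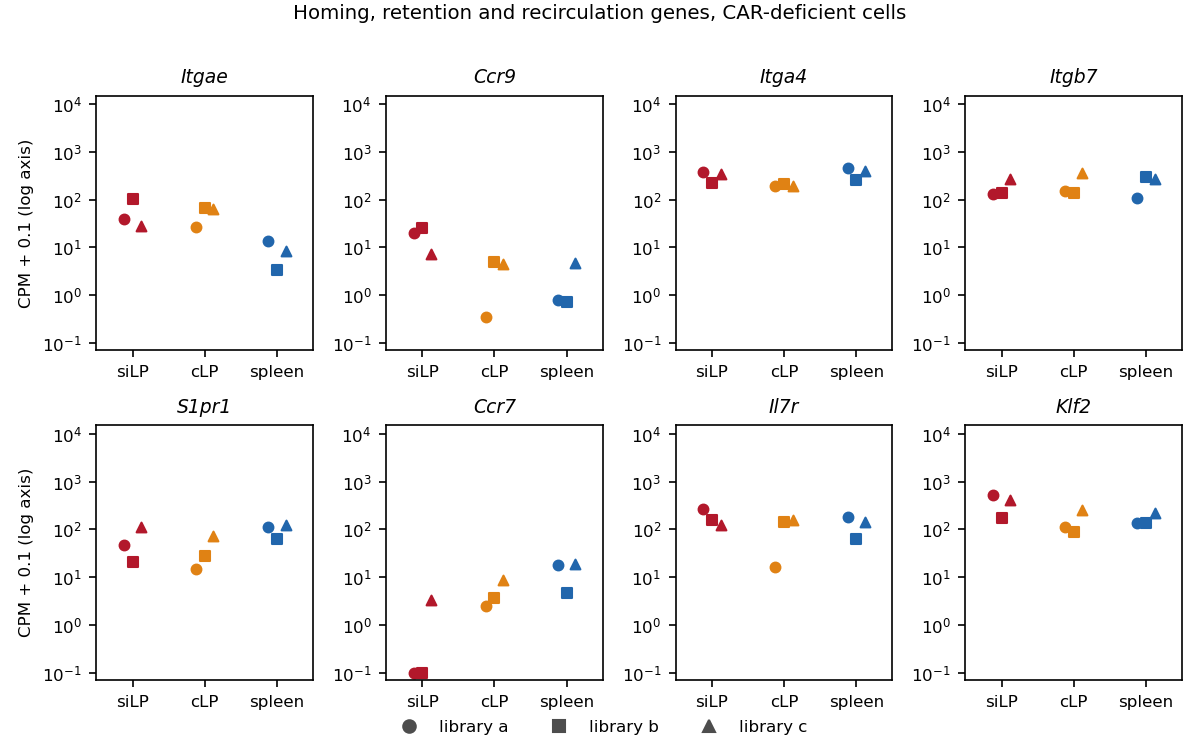
Levels of 8 homing, retention and recirculation genes in the CAR-deficient libraries of small intestine, colon and spleen, as CPM + 0.1 on a log axis. Itgae, Ccr9 and Ccr7 separate small intestine (red) from spleen (blue), while Itga4, Itgb7, S1pr1, Il7r and Klf2 overlap; none of the 8 passed the test.

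Effector cytokine genes had 13 of 18 above 0 and a median of 1.24, with Tnf as the 1 call and Ifng added by the block. Ifng, the defining cytokine of the Th1 type, had 7481, 2649 and 1303 CPM in small intestine libraries and 842, 754 and 497 CPM in spleen libraries. Library a was the highest and library c the lowest in both organs, and the groups did not overlap (log2 fold change 2.45 ± 0.66, adjusted p = 0.264, with the block 2.14 and 0.00769). Il10, an anti-inflammatory cytokine, had 148, 87.5 and 83.1 CPM in small intestine against 17.3, 18.2 and 1.72 CPM in spleen (3.10 ± 1.02, adjusted p = 0.486, with the block 3.71 and 0.0119). Il22, which acts on epithelium, had 1223, 614 and 820 counts in small intestine and 0, 1 and 10 counts in spleen, a ratio of 216 after scaling with a 95% counting interval of 120 to 433, yet passed in neither edgeR fit (adjusted p = 0.453 and 0.186) and passed with DESeq2 (adjusted p = 0.0116).

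Pairing changed the call of 2 chemokine genes. Ccl4, which encodes an inflammatory chemokine, had 11565, 6189 and 796 CPM in small intestine libraries against 1819, 1653 and 207 CPM in spleen libraries. The groups overlapped, with library c the lowest in both organs, but the same-ending log2 ratios were 2.67, 1.90 and 1.94 (log2 fold change 2.33 ± 1.17, adjusted p = 0.735 without the block, 2.15 and 0.00751 with it). Ccl3, its neighbour and close relative, had ratios of 2.85, 1.90 and 2.19 and moved likewise (adjusted p = 0.741, with the block 0.0228). The other chemokines did not pass: of 9 tested, 7 lay above 0 and the median was 2.47.

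Ctla4, which encodes an inhibitory receptor that takes up the costimulatory ligands of CD28, was the 1 call in both the regulatory T cell list (10 of 13 above 0, median 0.63) and the coinhibitory list (13 of 16, median 0.59). It had 530, 255 and 278 CPM in small intestine libraries against 50.3, 59.6 and 14.5 CPM in spleen libraries (log2 fold change 3.10 ± 0.52, adjusted p = 0.0197). Foxp3, the factor that defines regulatory T cells, had 0, 0 and 5.48 CPM in small intestine and 0, 0 and 0.679 CPM in spleen. Maf, Prdm1, Tigit and Havcr2 overlapped between the organs. Of the T cell receptor complex and its proximal signals, 13 of 18 lay above 0 at a median of 0.10 and 0 passed in either fit, with Cd28 at 903, 464 and 643 CPM in small intestine and 29.5, 193 and 202 CPM in spleen (2.24 ± 0.51, adjusted p = 0.108).

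The lists of helper types held few calls. Th1 genes had 10 of 15 above 0 at a median of 0.16, and Ifng was the 1 member past the threshold with the block. Tbx21, which encodes the Th1 factor T-bet, had 12.8, 28.3 and 60.6 CPM in small intestine against 21.2, 31.8 and 37.7 CPM in spleen. Th17 genes had 15 of 16 above 0 at a median of 1.42, though 0 passed without the block and only Irf4 with it, a factor that all activated T cells make (log2 fold change 2.13 ± 0.42, adjusted p = 0.0502, with the block 0.0044). Il17a, the cytokine that gives the Th17 type its name, was at 0, 0.506 and 0 CPM in small intestine and at 0 in all 3 spleen libraries.

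In edgeR only Hba-a2 and Dock3 fell without the block, and neither call survived leaving out any single library of the 6. Hba-a2, an alpha globin gene of red cells that shares nearly all its sequence with Hba-a1 and so has an uncertain read split, had 0.145, 0 and 0.749 CPM in small intestine libraries against 76.4, 955 and 123 CPM in spleen libraries (log2 fold change -10.27 ± 1.88, adjusted p = 0.0334). The 9 erythroid and platelet markers moved with it: their summed level was 7.12 to 11.6 CPM in small intestine and 146 to 2281 CPM in spleen. Of the 9, 5 did not overlap, against a share of 5.18% lower without overlap over all genes tested. Alas2, the erythroid enzyme of heme synthesis, was at 0 in all 3 small intestine libraries and in spleen library a. The part of red cell RNA in this result was not tested. Dock3, which encodes a Rac exchange factor known mainly from neurons, had 1, 0 and 1 counts in small intestine and 81, 77 and 27 in spleen, 103-fold lower in small intestine with a 95% counting interval of 28.2 to 861 (adjusted p = 0.0384). With the block Tmlhe, a carnitine synthesis enzyme, joined them, with 0.581, 0.674 and 0.355 CPM in small intestine against 20.8, 3.38 and 6.07 CPM in spleen (-4.22 ± 0.91, adjusted p = 0.0826, with the block 0.0387).

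Cell cycle genes lay below 0 without exception. All 22 had a negative log2 fold change, with a median of -0.92. Of these, 8 did not overlap, against a share of 5.18% lower without overlap over all genes, and 0 passed in either fit. Their summed level was 1205 to 2281 CPM in small intestine and 2724 to 4661 CPM in spleen, again without overlap. Ccnb2, a mitotic cyclin, had 33.7, 160 and 65.8 CPM in small intestine libraries against 199, 346 and 166 CPM in spleen libraries (-1.45 ± 0.45, adjusted p = 0.418), and Mki67, the marker of dividing cells, had 116, 185 and 150 CPM in small intestine against 244, 336 and 227 CPM in spleen (-0.84 ± 0.29, adjusted p = 0.537). Ribosomal protein genes (23 of 25 below 0, median -0.12) and nuclear genes of the respiratory chain (21 of 22, median -0.28) leaned the same way by less, with 0 calls in either fit.

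Killer cell lectin-like receptors, which mark terminal effector cells and natural killer cells, had 3 of 12 above 0 at a median of -0.86 and 0 calls in either fit. Klrg1 had 161, 177 and 207 CPM in small intestine libraries against 258, 317 and 570 CPM in spleen libraries, without overlap (log2 fold change -1.07 ± 0.37, adjusted p = 0.555). Klrd1 and Klre1 gave -1.24 ± 1.08 and -1.92 ± 1.07, also without overlap. Granule and cytotoxic genes had 4 of 15 above 0 at a median of -0.16; Srgn, the proteoglycan of the granule core, passed with the block alone (1.04 ± 0.38, adjusted p = 0.608, with the block 0.0494). Gzma, a granule protease, had 1669, 1129 and 384 CPM in small intestine and 2792, 804 and 2629 CPM in spleen, which overlapped, as did Gzmb.

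Drug and bile handling genes, the class that CAR controls in liver, had no call between the organs: 17 of 27 could be tested, 9 lay above 0, the median was 0.00 and 0 passed in either fit. Abcb1a, which encodes the efflux pump MDR1 of T cells, had 33.2, 74.0 and 63.4 CPM in small intestine libraries against 16.9, 29.2 and 40.5 CPM in spleen libraries, higher in all 3 same-ending pairs but overlapping (log2 fold change 0.98 ± 0.48, adjusted p = 0.728). Abcb1b had 14, 14.6 and 29.3 CPM in small intestine and 25.2, 13.8 and 11.6 CPM in spleen. Cyp2b10, the classic CAR target of liver, was at 0 in all 6 libraries. Of 16 ligand-sensing nuclear receptors and their partners 10 lay above 0 at a median of 0.35, and Tiparp, a target of the aryl hydrocarbon receptor, came closest (1.57 ± 0.33, adjusted p = 0.072, with the block 0.0592). Cholesterol and fatty acid synthesis genes (17 of 22 above 0, median 0.36) and interferon response genes (15 of 26, median 0.12) had 0 calls in either fit.

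**Figure D4:**
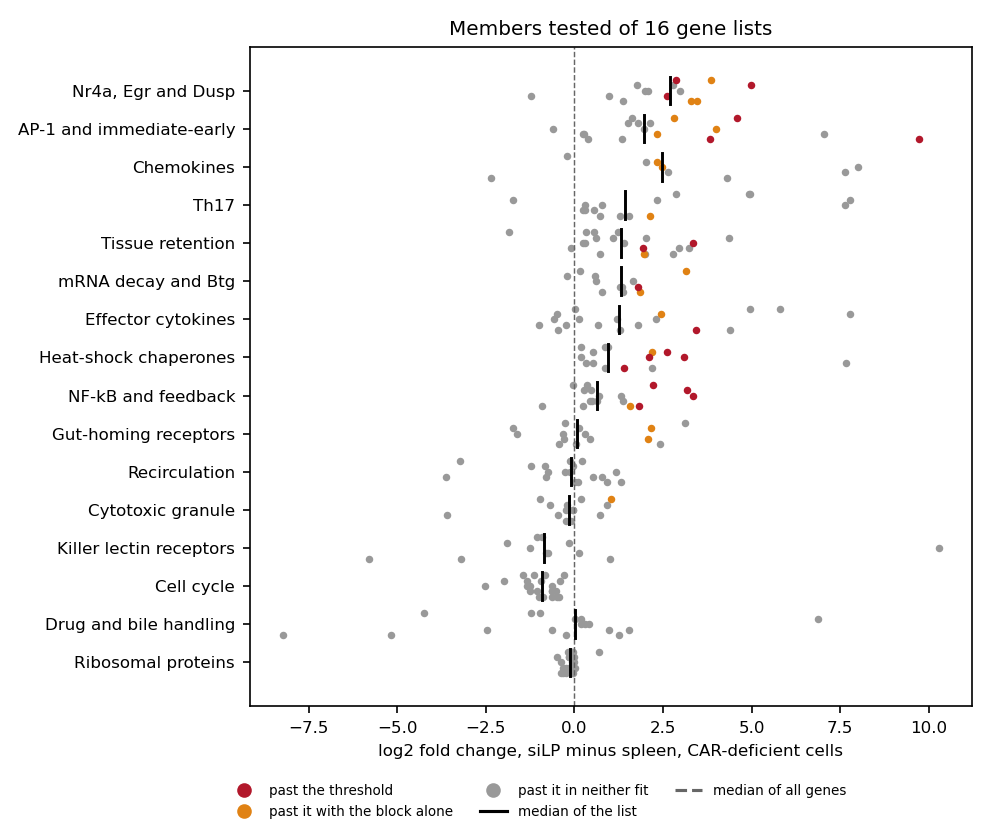
Each point is a member of 1 of 16 gene lists, placed by its log2 fold change of small intestine minus spleen CAR-deficient cells; black bars are list medians and the dashed line is the median of all genes. The Nr4a, Egr and Dusp list (median 2.70) and the AP-1 list (1.97) lie to the right with many coloured points, and cell cycle genes (-0.92) lie wholly to the left with none.

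Of the 45 genes that passed with the block alone, 25 were on a gene list. Of the 45, 44 rose and Tmlhe fell, 45 of 45 had the same sign in all 3 same-ending pairs, and 37 did not overlap between the organs. Passing with the block alone favours genes whose pairs differ alike, so these counts describe that choice and do not test the pairing. Over all genes tested, 2104 (14.1%) were higher in all 3 pairs and 2038 (13.7%) lower. Without overlap, 6.9% lay higher and 5.18% lower. Besides the genes above, the 45 include Zfp36 and Zfp36l1, which bind AU-rich messenger RNA and speed its decay (log2 fold changes 3.16 ± 0.69 and 1.86 ± 0.46). They also include Socs3, an inhibitor of cytokine receptors (2.37 ± 0.50), Fosl2 of the AP-1 family (3.99 ± 0.89) and Cxcr4, a chemokine receptor (2.09 ± 0.68). The genes that overlapped between the organs and still passed had libraries that fell together in both. Lilr4b, a receptor gene named here after its values were seen, had 1881, 1000 and 557 CPM in small intestine libraries a, b and c. Spleen libraries a, b and c had 654, 333 and 175 CPM (adjusted p = 0.69 without the block and 0.000415 with it).

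The same organ contrast in wild type cells used other libraries. There 28 genes passed (0.188%), 64 with the block (0.43%) and 150 of 16727 by DESeq2 (0.897%), and the 28 include 21 of the 32 called in CAR-deficient cells. All 30 genes that rose in CAR-deficient small intestine also lay above 0 in wild type, with a median of 2.87 in CAR-deficient cells, the contrast that chose them, and 2.56 in wild type cells, so the medians make no comparison of the genotypes. Nr4a1 gave 4.99 in CAR-deficient and 5.69 in wild type cells. Tnf gave 3.43 in CAR-deficient and 2.39 in wild type cells, where it did not pass (adjusted p = 0.0773).

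A test of the difference between these organ contrasts called 0 of 14876 genes (0%), which does not show that the contrasts are alike. It had 337 genes at an unadjusted p under 0.05, below the 744 that make up 5% of the genes. DESeq2 called 19 of 16208 genes (0.117%) in that test. The lowest adjusted p among the 30 genes was 1.00. Dock3 was the farthest apart of the 32 genes, with -6.46 in CAR-deficient and 0.04 in wild type cells, a difference of -6.50 that did not pass (adjusted p = 1.00). As lists, the immediate-early genes had medians of 1.97 in CAR-deficient and 1.72 in wild type cells, and heat shock genes 0.96 in CAR-deficient and 0.98 in wild type cells. Killer lectin receptors stood at -0.86 in CAR-deficient and 0.74 in wild type cells, and cell cycle genes at -0.92 in CAR-deficient and -0.33 in wild type cells, differences that carry no test of their own.

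**Figure D5:**
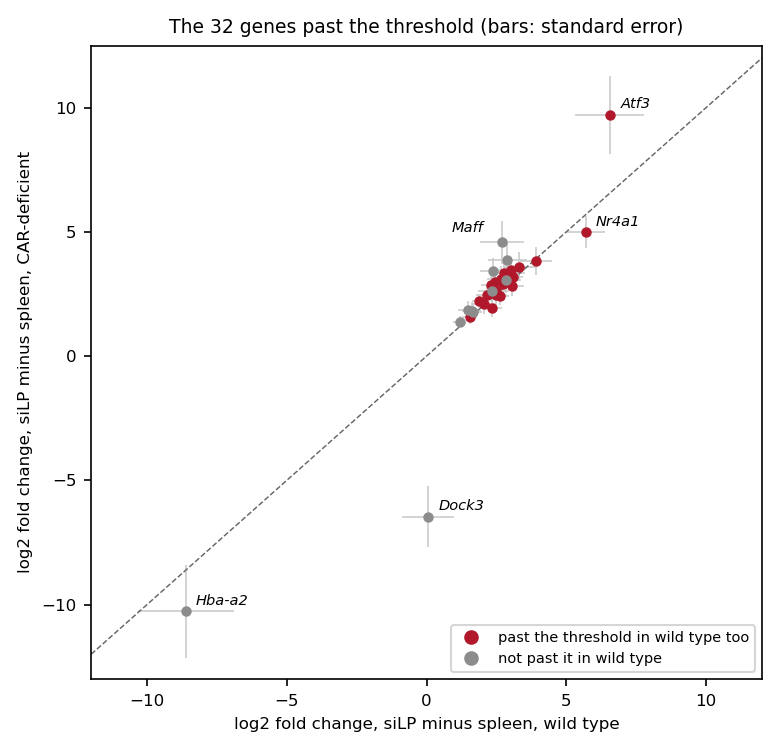
The 32 genes past the threshold, with the log2 fold change of small intestine minus spleen in wild type cells on the x axis and in CAR-deficient cells on the y axis; bars are standard errors and the dashed line marks equal values. Most genes lie near the line, red where they passed in wild type too (21 of 32), and Dock3 lies away from it at 0.04 and -6.46.

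Against the colon lamina propria of the same genotype, 0 of 14876 genes passed in edgeR (0%), and DESeq2 called 95 of 16727 (0.568%). In edgeR 910 genes had an unadjusted p under 0.05, beside 744 as 5% of the genes. The 0 calls do not show that the gut sites are alike. Of the 30 genes that rose over spleen, 25 were within 1 log2 unit between small intestine and colon, and 14 were lower in small intestine (lowest adjusted p = 0.744). Colon against spleen, which shares its spleen libraries with the main comparison, called 72 genes (0.484%), 25 of the 32 among them. Cd69 had 5030, 2977 and 1757 CPM in small intestine, 4098, 3033 and 2204 CPM in colon, and 357, 405 and 202 CPM in spleen. Ccr9 had 20.4, 25.1 and 7.34 CPM in small intestine against 0.247, 4.73 and 4.42 CPM in colon (log2 fold change 2.49, adjusted p = 0.783). Among the genes with the smallest p between the gut sites, Lmna, which encodes the nuclear lamins A and C, had 9.68, 6.24 and 14.6 CPM in small intestine against 54.1, 99.1 and 112 CPM in colon (-3.12, adjusted p = 0.744). Markers of non-T cells moved with the gut site. The 10 stromal and endothelial genes summed to 77.9 to 131 CPM in small intestine against 220 to 1601 CPM in colon. The 18 epithelial genes summed to 14.9 to 27.1 CPM in small intestine against 39.2 to 296 CPM in colon. The median log2 fold change was -5.11 over the 9 stromal and endothelial genes tested and -2.33 over the 10 epithelial genes tested. The part of non-T cells in these differences was not tested.

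Markers of cells other than CD4 T cells were read in both organs, and those of red cells and platelets, given above, were higher in every spleen library. Summed levels were 60.5 to 92.1 CPM in small intestine and 51.3 to 80.2 CPM in spleen for 11 genes of CD8, natural killer and innate lymphoid cells. For 15 myeloid genes they were 172 to 299 CPM in small intestine and 63.9 to 206 CPM in spleen, with 6 of 15 above 0, 9 below and a median of -0.51, so the sums and the median differ in direction. Lyz2, a lysozyme of macrophages, had 42.2, 24.6 and 31.5 CPM in small intestine against 0, 6.06 and 3.53 CPM in spleen. S100a8 and S100a9, calprotectin genes of neutrophils, were at 0 in all 3 small intestine libraries and reached at most 1.83 and 1.46 CPM in spleen. B and plasma cell genes summed to 58.9 to 249.8 CPM in small intestine and 45.9 to 154 CPM in spleen. Epithelial genes summed to 14.9 to 27.1 CPM in small intestine and 8.70 to 15.8 CPM in spleen, and stromal and endothelial genes to 77.9 to 131 CPM in small intestine and 50.3 to 81.6 CPM in spleen. Paneth cell genes, from the defensin-making cells of the small intestine crypt, summed to 2.91 to 4.50 CPM in small intestine and 0 to 0.705 CPM in spleen. Defa24, a defensin, had 90, 25 and 50 counts in small intestine and 0 in every spleen library, at least 49.2-fold higher against a floor of 3 counts over the group (adjusted p = 0.227), while Defa30, Mptx2, Ang4 and Mmp7 were at 0 in all 6 libraries. The part of these cells in the results above was not tested.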

How the data were processed

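The authors deposited 1 table of estimated counts per gene for 18 libraries, per the file headers. Its other 36 per-sample columns (abundances and transcript lengths) were not used, since endings map columns to groups and not to single samples. The labels name SMART-Seq v4 cDNA, and the submitters' processing notes name Salmon, DESeq2 and the build mm10, with no versions. Gene names and positions came from GENCODE vM21 (GRCm38); all 34162 IDs matched. The estimated counts were rounded, filtered with filterByExpr (14876 genes kept) and scaled by TMM, from which CPM were computed. edgeR 4.0.16 in R 4.3.3 (quasi-likelihood, two-sided, Benjamini-Hochberg over all genes, threshold 0.05) was fitted with 1 term per group on all 18 libraries, without and with the column ending as a replicate block. Alternatives were DESeq2 1.42.0, voomWithQualityWeights of limma 3.58.1, other scalings, no filter, a log2 fold threshold of 1, the 6 libraries alone, and fits without single libraries or without the a libraries. The scripts were checked on simulated data. There the fit without the block, small intestine against spleen, recovered 1 of 50 genes changed 2-fold, 13 of 50 changed 4-fold and 37 of 50 changed 16-fold. Many true changes would thus be missed. The planned length offset and limma fit on TPM were not run.

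Members, gene lists and motifs were chosen with earlier results of these data known. Genes named are, by rule, the largest changes among the genes past the threshold without overlap and with at least 5 CPM in a group, list members past the threshold (or the 2 with the smallest p where none passed), the 5 with the smallest p per direction in the genotype and colon tests, and a fixed set of T cell genes. Genes that passed with the block alone, further list members, and the marker genes with their values were named after their values were seen. Counting intervals cover counting error only. A few genes counted in the lists are not reported here by name.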

Additional observations from a re-analysis of the deposited data

Results flagged for a closer look

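Cxcr6, a chemokine receptor of resident T cells, moved in opposite directions in the 2 genotypes, in every library. It had 1060, 1057 and 679 CPM in CAR-deficient small intestine against 660, 663 and 577 CPM in CAR-deficient spleen, and 623, 493 and 579 CPM in wild type small intestine against 818, 823 and 625 CPM in wild type spleen. The wild type groups were parted only by 623 CPM in small intestine against 625 CPM in spleen. The organ difference in CAR-deficient cells minus that in wild type cells was 0.98 on the log2 scale and did not pass (edgeR, adjusted p = 1.00).

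Haao, an enzyme of tryptophan breakdown, did likewise at low counts. It had 0 CPM in all 3 CAR-deficient small intestine libraries against 7.91, 2.02 and 3.49 CPM in CAR-deficient spleen, at least 101-fold lower against a floor of 3 counts over the group, and 12.8, 3.25 and 1.47 CPM in wild type small intestine against 0, 1.19 and 0.885 CPM in wild type spleen. The fitted difference was -12.70, which depends on the prior count, and did not pass (adjusted p = 1.00). The direction of each group was read from its libraries and was not itself tested. Cxcr6 and Haao were found by scanning the genes chosen for naming for groups without overlap in opposite directions. Haao was chosen for naming because its p in the genotype test was among the 5 smallest for its direction. Its opposite directions thus follow in part from that choice, whereas Cxcr6 belonged to the fixed set. The share of all genes that do so was not counted. In CAR-deficient cells alone, 6.9% of genes tested had no overlap with small intestine higher and 5.18% with it lower.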

How the results depend on the processing

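The count of 32 genes became 77 with the column ending as a replicate block, 0 on the 6 libraries alone with that block and 0 without it, 275 with DESeq2, 57 with voomWithQualityWeights (27 of the 32), 10 with a log2 fold threshold of 1 and 19 without the 6 a libraries; leaving out single libraries gave 5 to 28. It was 32 with RLE, 35 with upper quartile scaling and 45 without a filter. The planned offset from transcript lengths and the limma fit on TPM were not run. No called gene changed direction under any of these. Past the threshold in 6 of 6 fits without a library were Hilpda, Tnfaip3, Nfkbiz and Dusp5. The genotype and colon tests were rerun with the block, with DESeq2 and without single libraries only: both gave 0 except with DESeq2 (19 and 95). The wild type contrast gave 64 with the block and 150 with DESeq2 in place of 28. Among genes near 0, Tbx21 (0.16) became -0.11 with the block, -0.059 with the block on the 6 libraries alone and -0.029 with voomWithQualityWeights, Gzmb (-0.25) 0.011 with voomWithQualityWeights, and Ptprc (0.11) -0.0093 without the a libraries. Without single libraries they ran from -0.56 to 0.56 (Tbx21), -0.60 to 0.17 (Gzmb), -0.018 to 0.31 (Ptprc), -0.41 to 0.46 (Tcf7) and -0.24 to 0.63 (Abcb1b). The cause was not tested.

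Pairing rests on the column ending only. Deviations of same-ending libraries correlated at 0.177 (a), 0.0545 (b) and 0.327 (c) in this comparison, so 1 of 3 pairs missed 0.1. Of the pairs with other endings, small intestine c and spleen b reached 0.120, and small intestine b and spleen a 0.0845. The rest lay between -0.120 and -0.290. Over all groups, 40 of 45 same-ending pairs and 9 of 90 others exceeded 0.1. Deviations were taken from the mean of each group, so the counts of same-ending and other pairs are not independent. The common biological coefficient of variation of 0.791 with 3 libraries a group limits which changes can pass.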
